A study of Mus musculus with 6 samples.

Results

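Early response genes of 3 related groups were followed through 6 RNA-seq libraries of myeloid cells sorted from mouse gliomas: Nr4a1, Nr4a2, Nr4a3, Egr1, Egr2, Egr3, Nab1 and Nab2. They are 8 of the 23107 genes in the deposited table, and all 8 were among the 12950 genes that passed the filter on low counts. They were chosen by symbol with the contrast between the tumour genotypes already known, so their differences between the groups are given as a description, and the calls they receive in the test over all genes are not evidence of their own. The cells carried both CD11b and Gr-1 and came from gliomas in C57BL/6 mice. In the wtIDH1 group (3 libraries) the genotype is wild-type IDH1, and in the mIDH1 group (3 libraries) it is mutant IDH1, the form of isocitrate dehydrogenase that makes 2-hydroxyglutarate. Tumours were made into cell suspensions, immune cells were enriched on Percoll and the cells were sorted by flow cytometry before RNA was extracted. The sources used here do not give the tumour model, its other alleles, the age of the mice or whether a library is 1 mouse or a pool.

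The NR4A genes encode orphan nuclear receptors that work without a classical ligand, so that their activity depends in part on their abundance. Receptor activity was not measured here. The EGR genes encode zinc finger transcription factors that bind GC-rich sites. The NAB proteins bind EGR factors and usually repress their activity, and EGR factors can induce Nab2, which closes a feedback loop. In myeloid cells Nr4a1 is known for its part in the survival of Ly6C-low monocytes and in restraining inflammatory genes, and Egr1 and Egr2 for macrophage differentiation. Most of these genes are switched on within minutes by growth factors, cytokines or stress through kinase, calcium and cAMP signals, and dissociating a tissue can induce them too.

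The promoters of the 4 genes that were lower in the mIDH1 libraries are shown because early response genes are read through short sites next to the transcription start. RefSeq promoter windows of the GRCm38.p6 build, which has the coordinates of mm10, were matched for 6 of the 8 genes. Egr1 and Egr3 were not searched, so nothing is known here of their sites. Each sequence runs 5′ to 3′ on the gene's strand and ends before the start site or before the first annotated exon. Capitals mark TGACG, the core of the cAMP response element bound by CREB and ATF factors, read on either strand, so that it also appears as CGTCA. In Nr4a1 and Nr4a2 capitals also mark a match to the EGR site GCGNGGGCG, and in Egr2 the CArG box bound by serum response factor.
Nr4a1, chr15:101266596-101266845, plus strand: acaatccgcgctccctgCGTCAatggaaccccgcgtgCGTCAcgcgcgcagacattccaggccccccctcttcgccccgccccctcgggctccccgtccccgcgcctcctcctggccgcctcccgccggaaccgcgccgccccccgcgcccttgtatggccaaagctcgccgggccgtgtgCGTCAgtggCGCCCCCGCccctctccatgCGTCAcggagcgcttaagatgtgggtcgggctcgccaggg
Nr4a2, chr2:57124004-57124253, minus strand: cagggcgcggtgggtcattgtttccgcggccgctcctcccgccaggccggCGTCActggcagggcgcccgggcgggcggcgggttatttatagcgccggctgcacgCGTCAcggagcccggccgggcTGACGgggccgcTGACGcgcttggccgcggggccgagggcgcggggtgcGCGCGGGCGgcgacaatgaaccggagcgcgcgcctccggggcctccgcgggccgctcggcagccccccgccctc
Nr4a3, chr4:48045055-48045152, plus strand: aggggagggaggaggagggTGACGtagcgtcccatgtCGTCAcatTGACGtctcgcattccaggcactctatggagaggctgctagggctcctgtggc
Egr2, chr10:67537619-67537868, plus strand: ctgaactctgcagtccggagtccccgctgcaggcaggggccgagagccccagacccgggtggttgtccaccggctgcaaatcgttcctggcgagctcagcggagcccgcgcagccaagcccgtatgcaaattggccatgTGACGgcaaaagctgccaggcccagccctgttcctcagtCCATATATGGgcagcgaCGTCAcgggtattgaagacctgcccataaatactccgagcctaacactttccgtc
The Egr2 window is 1 of 5 that RefSeq gives for that gene and was taken at the start of the GENCODE transcript Egr2-201. The Nr4a2 window lies at the farthest upstream start of that gene, and the GENCODE transcript Nr4a2-201 starts at 57115038, further downstream.

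Over windows of 250 bases, TGACG occurred 4 times in each of Nr4a1, Nr4a2 and Nr4a3. For Nr4a3, 3 of these lie in the stretch shown. Nr4a1 has them 233 to 229, 213 to 209, 69 to 65 and 40 to 36 bases before the start. Of all 32851 RefSeq windows, 17.8% held the letters at least once, against 5 of the 6 windows searched here, and 45 windows (0.137%) held them 4 times or more. Egr2 had 2 matches, Nab1 had 1 and Nab2 had none. Among the 6 windows, which leave out Egr1 and Egr3, the CArG box was found only in Egr2, 72 to 63 bases before the start. It was in 1.47% of all windows. The EGR site stood 60 to 52 bases before the start of Nr4a1, 74 to 66 bases before that of Nr4a2 and at 3 places in Nab1, against 4.7% of all windows. All matches in the Nab1 window lie past the first base of an annotated exon, as do 231 of its 250 bases. The full cAMP response element TGACGTCA, the NR4A site AAAGGTCA and the AP-1 site TGANTCA, all read on both strands, had no match in the 6 windows, against 1.55%, 1.34% and 6.75% of all windows. The core letters are part of the full element. These matches describe letters in a window and are no measure of binding.

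The libraries held 19728205 to 35093265 estimated counts, and levels are given as CPM (counts-per-million, scaled by TMM), as mean ± SD with n = 3 libraries in each group. The labels do not say that the libraries of a group are separate animals, so the spread between them may be partly technical. Of the markers checked against the gate, the 4 leukocyte genes summed to 3748 to 4086 CPM in wtIDH1 and 3690 to 4479 CPM in mIDH1. The 8 macrophage genes summed to 4098 to 4761 CPM in wtIDH1 and 5530 to 8913 CPM in mIDH1, and 4 of them rose. The 7 monocyte genes summed to 5454 to 8894 and 4019 to 6061 CPM, with 1 higher and 2 lower. Most of the monocyte sum was Fn1 (5236 and 3207 CPM on average), which did not pass, so it tells little of the others. Of the 2 lower genes, Ly6c2 was at 120, 215 and 121 CPM in wtIDH1 and 46.9, 54.3 and 33.8 CPM in mIDH1. The higher gene, F13a1, was at 292, 393 and 388 CPM in wtIDH1 and 882, 842 and 1970.5 CPM in mIDH1. The 8 neutrophil genes summed to only 333 to 416 and 436 to 481 CPM, with 3 higher and 1 lower. Much of this sum was the lower gene, Csf3r (260 and 148 CPM on average), so it tells little of the others. Every other gene of this list was higher on average in mIDH1. Those that passed were Cxcr2 (22.7 and 50.2 CPM on average), Mmp8 (30.1 and 109) and Lcn2 (6.00 and 35.0). S100a8, an abundant neutrophil gene, was at most 11.3 CPM in any library. Sums for T and NK cells (7 of 8 genes found) were 162 to 342 and 240 to 513 CPM, for B cells 2.72 to 4.48 and 5.43 to 12.0 CPM. Endothelial and pericyte genes summed to 95.9 to 131 and 62.7 to 100 CPM, with the pericyte gene Rgs5 at 0 in every library, and glioma and neural genes to 85.1 to 93.1 and 88.7 to 95.4 CPM. No T and NK, B or endothelial gene passed. Most of the neural sum was Mbp (82.1 ± 2.56 and 75.3 ± 7.89 CPM), so it tells little of the others. Of those, 1 gene, Sox2, rose, from 0, 0.0759 and 0.151 CPM in wtIDH1, a few counts at most, to 0.546, 7.30 and 4.19 CPM in mIDH1. Nes was higher in every mIDH1 library (2.91 ± 0.706 and 8.97 ± 0.598 CPM) but did not pass. Gfap was lower on average (2.86 ± 2.48 and 0.668 ± 0.124 CPM). Over all tested genes 5.39% fell and 2.78% rose. The part of these cell types in the values below was not tested, and in RNA from sorted cells fewer cells of a type and less RNA per cell cannot be told apart.

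All 3 NR4A receptor genes and Egr2 were lower in myeloid cells from mIDH1 tumours, whereas Egr1 was slightly higher and Egr3, Nab1 and Nab2 overlapped between the groups. Mean levels were 6.05-fold lower for Nr4a2, 3.09-fold for Egr2, 2.77-fold for Nr4a1 and 2.01-fold for Nr4a3, and 1.25-fold higher for Egr1. By edgeR's quasi-likelihood test at an adjusted p of 0.05, 4 of the 8 were called lower, where 5.39% of all tested genes were, and none was called higher, where 2.78% of all genes were. In 4 of the 8 every mIDH1 library lay below every wtIDH1 library, as in 14.9% of all genes, and in 1 of the 8, Egr1, every mIDH1 library lay above, as in 14.0%. The median log2 fold change (mIDH1 minus wtIDH1) was -0.58 over the 8 genes and 0.06 over all tested genes. These counts describe genes picked from this contrast, and nothing further is read from them. Without wtIDH1 replicate 2, the library with the highest level of each NR4A gene, 2 of the 8 passed, Nr4a2 and Egr2, while Nr4a1 and Nr4a3 kept log2 fold changes of -1.38 and -0.92 and missed the threshold.

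**Figure D1:**
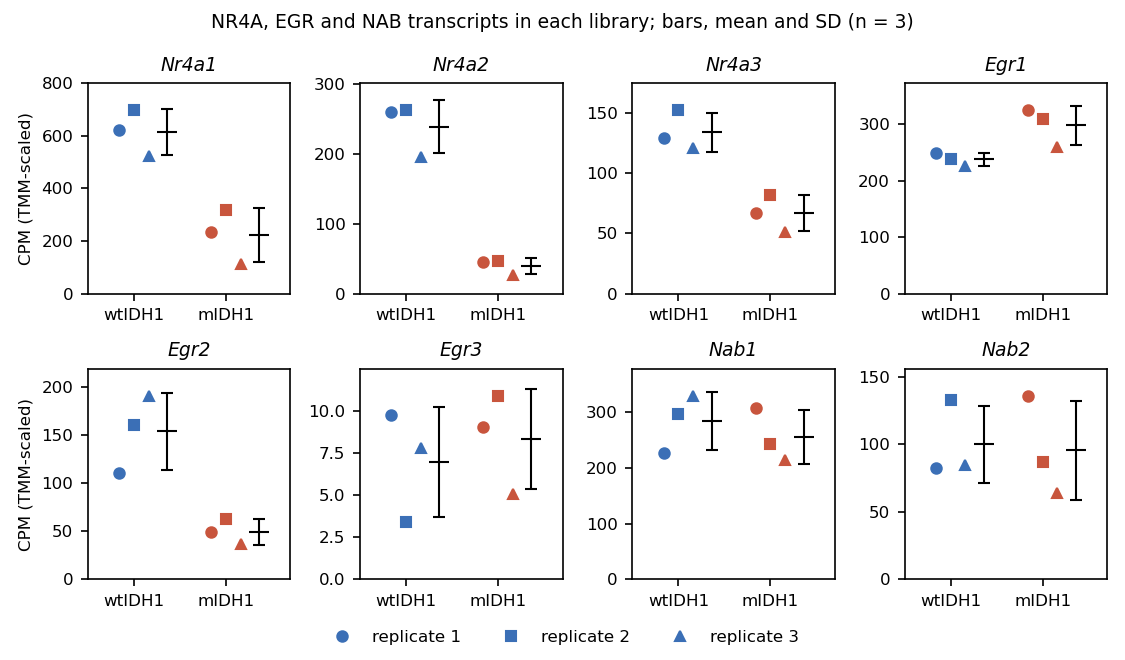
Levels of the 8 genes in each library, in CPM on axes that start at 0, with a point for each wtIDH1 and mIDH1 library, shaped by replicate, and a black bar for the mean and SD of each group. The groups are apart for Nr4a1, Nr4a2, Nr4a3, Egr2 and, in the other direction, Egr1, and they overlap for Egr3, Nab1 and Nab2.

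Nr4a1 (Nur77; chr15:101254269-101274795) was the most abundant of the nuclear receptor genes. It stood at 622, 696 and 523 CPM in wtIDH1 replicates 1, 2 and 3 and at 233, 318 and 115 CPM in mIDH1 replicates 1, 2 and 3. The groups did not overlap, and mIDH1 replicate 3 was the lowest library. The means were 614 ± 86.9 and 222 ± 102 CPM, with a log2 fold change of -1.47 ± 0.29 (SE).

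Nr4a2 (Nurr1; chr2:57106830-57124003, minus strand), studied mainly in dopamine neurons but also induced in activated macrophages, differed most. Its levels were 259, 262 and 195 CPM in wtIDH1 and 45.3, 47.0 and 26.0 CPM in mIDH1. The lowest wtIDH1 library was thus well above the highest mIDH1 library. The means were 239 ± 37.7 and 39.4 ± 11.7 CPM (log2 fold change -2.60 ± 0.24 SE), and the value lay between -2.74 and -2.37 under all 15 alternative settings.

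Nr4a3 (Nor1; chr4:48045153-48086447), which overlaps in function with Nr4a1 in myeloid cells, was the least abundant receptor in wtIDH1. It was at 129, 152 and 121 CPM in wtIDH1 and at 66.6, 81.4 and 51.5 CPM in mIDH1, with no overlap. The means were 134 ± 16.2 and 66.5 ± 14.99 CPM (log2 fold change -1.01 ± 0.20 SE).

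The make-up of the NR4A transcripts differed as well. The 3 genes summed to 1010, 1110 and 839 CPM in wtIDH1 libraries and 345, 447 and 192 CPM in mIDH1 libraries, or 986 ± 137 and 328 ± 128 CPM on average. Nr4a2 made up 25.7, 23.6 and 23.3% of this sum in wtIDH1 and 13.1, 10.5 and 13.5% in mIDH1. Nr4a3 made up 13.6 ± 0.825% and 21.5 ± 4.65%, and Nr4a1 62.2 ± 0.581% and 66.1 ± 5.90%. The shares of Nr4a2 and Nr4a3 did not overlap between the groups and moved in opposite directions, while those of Nr4a1 overlapped. The ratio of Nr4a1 to Nr4a2 CPM was 2.40, 2.66 and 2.68 in wtIDH1 and 5.15, 6.76 and 4.41 in mIDH1. These shares and ratios are of CPM and take no account of transcript length.

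Egr1, a first-wave growth factor response gene, was at 249, 239 and 227 CPM in wtIDH1 and at 325, 310 and 260 CPM in mIDH1. All mIDH1 libraries were higher, the nearest pair being 249 and 260 CPM. The means were 238 ± 11.2 and 298 ± 34.0 CPM (log2 fold change 0.32 ± 0.16 SE), a difference that did not pass the threshold in any of the 15 alternative settings.

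Egr2 (Krox20; chr10:67535475-67542188), known from myelination and from macrophage responses to IL-4, had levels of 111, 160 and 190 CPM in wtIDH1 and 49.6, 63.3 and 36.3 CPM in mIDH1. Every wtIDH1 library was above every mIDH1 library. The means were 154 ± 40.0 and 49.7 ± 13.5 CPM (log2 fold change -1.63 ± 0.25 SE).

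Egr3 (chr14:70077203-70082614), an NFAT target known from lymphocytes and muscle spindles, was scarce, at 9.75, 3.38 and 7.82 CPM in wtIDH1 and 9.05, 10.9 and 5.09 CPM in mIDH1. The groups overlapped, with a log2 fold change of 0.26 ± 0.54 (SE). This error is the widest of the 8, and Egr3 had the lowest level of the 8 in every library. Their relative Egr4 had counts only in mIDH1 replicate 3 (0.238 CPM) and was not tested.

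The sum of the EGR transcripts overlapped between the groups (399 ± 27.6 and 356 ± 47.6 CPM), but the shares of Egr1 and Egr2 in it did not. Egr1 made up 67.3, 59.4 and 53.3% of the sum in wtIDH1 and 84.7, 80.7 and 86.3% in mIDH1. Egr2 made up 38.2 ± 7.51% and 13.8 ± 2.34%, and Egr3, whose shares overlapped, 1.77 ± 0.901% and 2.29 ± 0.573%. The ratio of Egr1 to Egr2 CPM was accordingly 2.24, 1.49 and 1.19 in wtIDH1 and 6.55, 4.90 and 7.16 in mIDH1, with no overlap. As for the NR4A genes, these shares and ratios take no account of transcript length.

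**Figure D2:**
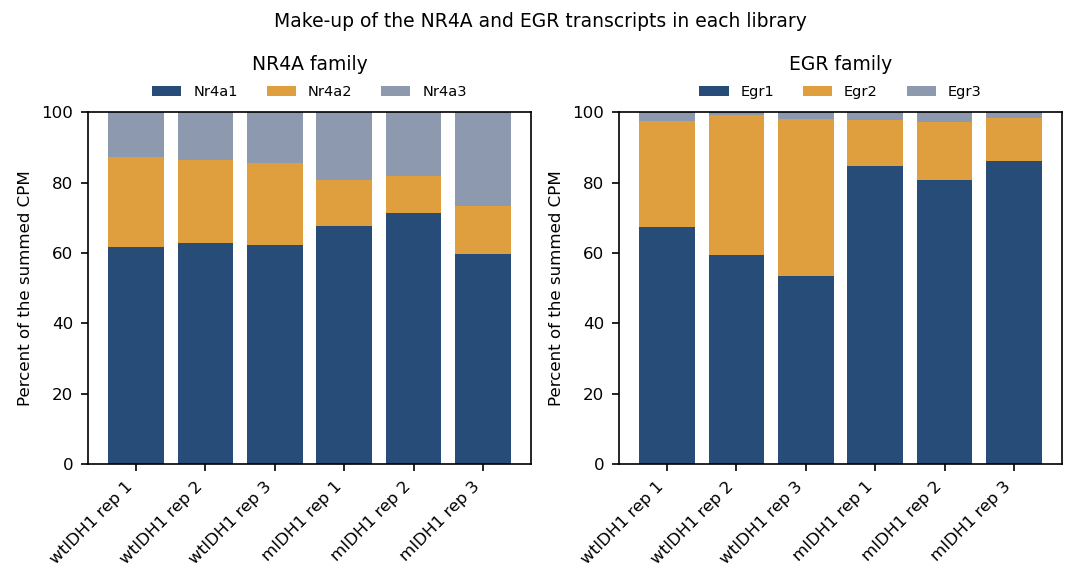
Stacked bars give the percent of the summed CPM of the NR4A genes (left) and of the EGR genes (right) that each gene took in each library. The Nr4a2 share is 23.3 to 25.7% in wtIDH1 and 10.5 to 13.5% in mIDH1, and the Egr1 share is 53.3 to 67.3% and 80.7 to 86.3%.

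Nab1 (chr1:52457294-52500679, minus strand), a corepressor of EGR factors, was at 227, 296 and 328 CPM in wtIDH1 and 308, 243 and 214 CPM in mIDH1. Nab2 (chr10:127660918-127668568, minus strand), the corepressor that EGR factors can induce, was at 82.2, 133 and 84.4 CPM in wtIDH1 and 136, 87.2 and 64.1 CPM in mIDH1. Both genes overlapped widely between the groups, with log2 fold changes of -0.15 ± 0.19 and -0.06 ± 0.27 (SE). The sign of the Nab2 value turned with library totals as the only scaling (0.0065) or when a single library was left out (up to 0.19 without wtIDH1 replicate 2). The ratio of Egr2 to Nab2 CPM was 1.35, 1.20 and 2.26 in wtIDH1 and 0.366, 0.725 and 0.566 in mIDH1, and the ratio of Egr1 to Nab2 overlapped. In GENCODE M21, 1 exon of the antisense gene Gm16229 overlaps 829 exonic bases of Nab2 (32.1%), and 1 exon of Stat6 overlaps 40. These are the longest overlaps of a single exon, so the full overlap may be larger. The libraries do not mark strand, so reads there cannot be assigned. Gm16229 was not analysed here, and Stat6 was at 460 ± 40.2 and 410 ± 38.6 CPM.

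Levels can be compared between genes once divided by exonic length, here as CPM per kilobase of GENCODE M21 exons. In wtIDH1, Nr4a1 stood apart at 229 ± 32.4 CPM per kilobase. Nab1 (70.5 ± 12.9), Nr4a2 (63.8 ± 10.1), Egr1 (53.1 ± 2.497), Egr2 (48.3 ± 12.6) and Nab2 (38.7 ± 11.2) followed, and each overlapped the next in the order. Nr4a3 (23.4 ± 2.82) lay apart below them and Egr3 (1.701 ± 0.797) below that. In mIDH1 the order began with Nr4a1 (82.8 ± 38.1), Egr1 (66.5 ± 7.58) and Nab1 (63.4 ± 11.9), whose ranges overlapped. Nab2 (37.1 ± 14.1) lay below every value of Egr1 and Nab1, but its range met that of Nr4a1. Then came Egr2 (15.6 ± 4.24), Nr4a3 (11.6 ± 2.62) and Nr4a2 (10.5 ± 3.11), which overlapped, and Egr3 (2.03 ± 0.720). Nr4a2 was thus the third of 8 in wtIDH1 and the seventh in mIDH1.

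A single library was at an extreme for many of these genes. In mIDH1 replicate 3 all 8 were at the lowest level of their group, as were 22 of 35 other early response genes and 35.6% of all tested genes. The same library had the highest macrophage marker sum, 8913 CPM, where mIDH1 replicates 1 and 2 had 5624 and 5530 CPM. In wtIDH1 replicate 2, 4 of the 8 (Nr4a1, Nr4a2, Nr4a3 and Nab2) and 30 of the 35 other early response genes were at the highest level of their group, against 32.9% of all genes. Whether these features of the libraries bear on the NR4A and EGR levels was not tested. With mIDH1 replicate 3 left out, the same count of 4 of the 8 genes was called lower in mIDH1.

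Among 35 other early response genes, 12 fell in mIDH1 and none rose, where 5.39% of all tested genes fell and 2.78% rose. A negative log2 fold change was seen in 30 of the 35, as in 6037 of all 12950 tested genes, and the list's median was -0.63. Plk3, a stress-induced kinase gene, was at 375 ± 37.7 CPM in wtIDH1 and fell to 120 ± 12.8 CPM (log2 fold change -1.64, adjusted p = 0.00018). Atf3, a stress-induced CREB family factor, fell from 973 ± 181 to 287 ± 59.8 CPM (-1.76, adjusted p = 0.00042). Maff, a small bZIP factor gene, and Fosb, an AP-1 subunit gene, had log2 fold changes of -1.39 and -1.16 (adjusted p = 0.0016 and 0.0021). Some of the best known early genes did not pass: Fos was at 3148 ± 711 and 2539 ± 425 CPM (adjusted p = 0.392), and Ier2 and Dusp1 overlapped between the groups. Jun, as well known, was among those that fell, from 2551 ± 631 to 1408 ± 325 CPM (adjusted p = 0.029). The number that fell was 6 without wtIDH1 replicate 2 or wtIDH1 replicate 3.

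**Figure D3:**
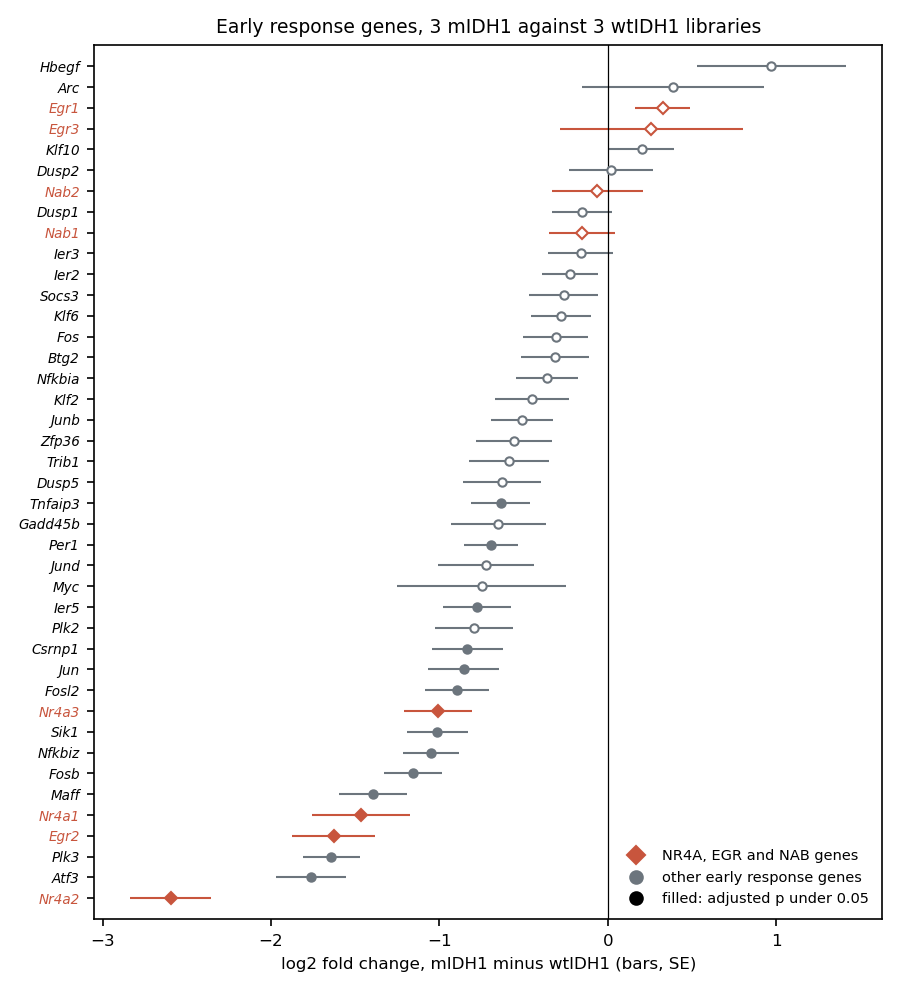
Log2 fold change (mIDH1 minus wtIDH1) with its standard error for the 8 genes and for the other early response genes, in order of size, with filled symbols for genes past the threshold and Fosl1 and Cyr61 not drawn for their wide errors at low counts. Nr4a2 lies at the lower end at -2.60, and Egr1 is at 0.32.

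Signals and factors that act upstream of the NR4A and EGR genes were counted as well. Of 27 tested, 2 fell and none rose, where 5.39% of all tested genes fell and 2.78% rose. The median log2 fold change was -0.25. Mef2d, a calcium-responsive factor that binds the Nr4a1 promoter in lymphocytes, fell from 169 ± 7.06 to 97.6 ± 10.2 CPM (adjusted p = 0.012). Crtc2, a CREB coactivator gene, fell from 51.7 ± 5.51 to 25.9 ± 3.47 CPM (adjusted p = 0.020). Ppp3r1, the calcineurin B subunit gene, had a log2 fold change of 0.50 (adjusted p = 0.069). Neither Mef2d nor Crtc2 passed without wtIDH1 replicate 2 or wtIDH1 replicate 3, and 1 gene of the list fell without mIDH1 replicate 2. Scaled by library totals alone, 2 fell and 2 rose.

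Of 12 tested partners and relatives 1 fell, Chd3, a remodeller of the NuRD complex (133 ± 14.5 CPM, then 58.2 ± 4.39 CPM in mIDH1; log2 fold change -1.19, adjusted p = 0.0018). NuRD complexes built on the related Chd4 are recruited by NAB2, and Chd4 itself overlapped between the groups (530 ± 23.1 and 551 ± 30.4 CPM, adjusted p = 0.88). Rxra, the gene of a receptor that pairs with Nr4a1 and Nr4a2, was at 74.6 ± 25.3 and 129 ± 28.9 CPM (adjusted p = 0.073). The list's median was 0.05, and of all tested genes 5.39% fell and 2.78% rose. Scaled by library totals alone, with no filter or by DESeq2, 1 gene of the list rose as well.

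Heat shock genes, which cell handling can also induce, were examined beside the 8 genes. Of 14, 3 fell and none rose, where 5.39% of all tested genes fell and 2.78% rose. The median log2 fold change of the 14 was -0.31. Hsf1, the heat shock factor gene, fell from 25.4 ± 4.07 to 9.12 ± 2.41 CPM (adjusted p = 0.019), and Dnaja1, a cochaperone gene, from 93.7 ± 24.5 to 50.5 ± 6.57 CPM (adjusted p = 0.030). Hspa1b, an inducible HSP70 gene, was at 23.8, 108 and 79.9 CPM in wtIDH1 and 16.1, 25.7 and 5.37 CPM in mIDH1 (adjusted p = 0.030), with overlapping groups. Its near-identical copy Hspa1a (log2 fold change -1.51, adjusted p = 0.055) shares reads with it, so both values are uncertain. Hspa1b was lowest in mIDH1 replicate 3, as were all 8 genes, and in wtIDH1 replicate 1, as were Egr2, Nab1 and Nab2 but not the NR4A genes. No heat shock gene fell without wtIDH1 replicate 2 or wtIDH1 replicate 3. Whether handling differed between the groups was not tested.

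Genes of programs in which Nr4a1 and Egr2 are known to act were counted too. Of 12 tested genes of Ly6C-low monocytes, counted without Nr4a1, none passed edgeR's test, where 5.39% of all tested genes fell and 2.78% rose. At an unadjusted p under 0.05 there were 2, against 2878 of all 12950 tested genes. By DESeq2 and by limma voom 1 gene of the list passed, and the median log2 fold change was -0.07. Cebpb, a factor needed by these monocytes, was at 812 ± 171 and 505 ± 127 CPM (adjusted p = 0.073), and Spn, their CD43 gene, at 145 ± 22.8 and 246 ± 100.2 CPM (adjusted p = 0.112). Leaving out mIDH1 replicate 1 gave 2 lower genes, and leaving out mIDH1 replicate 3 gave 1 higher gene. Some genes of the list were far lower in mIDH1 replicate 3 than in the other mIDH1 libraries. Ace was at 103, 146 and 8.94 CPM in mIDH1 replicates 1, 2 and 3, and Treml4 at 45.8, 70.1 and 4.61 CPM. Cx3cr1 went the other way, at 177, 284 and 402 CPM.

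Of 15 tested genes linked to the IL-4 response of macrophages, counted without Egr2, 1 rose and 1 fell. Over all tested genes 2.78% rose and 5.39% fell. The list also holds Il4ra and Stat6, genes of the IL-4 receptor and its signal, and its median was -0.25. Mrc1, the mannose receptor gene, rose (log2 fold change 2.53, adjusted p = 0.00017), while Mgl2, a lectin gene, fell from 15.7 ± 5.58 to 1.96 ± 1.33 CPM (adjusted p = 0.011). The chemokine genes Ccl22 and Ccl24 had log2 fold changes of -1.81 and 1.81 (adjusted p = 0.063 and 0.065). Without mIDH1 replicate 3, 3 of these genes rose and 3 fell, and without wtIDH1 replicate 3, 1 rose and none fell.

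The genes whose pattern over the 6 libraries lay nearest to a given gene were found by the root mean square difference of log2 CPM, each gene centred on its own mean, over 9052 genes with a mean of at least 5 CPM. Nearest to Nr4a1 were Xaf1 (0.18) and Il1b (0.20). Il1b, the interleukin-1 beta gene, stood at 2228, 2310 and 2496 CPM in wtIDH1 and 1086, 1228 and 415 CPM in mIDH1, and thus shared the low level of mIDH1 replicate 3 with Nr4a1. Nearest to Egr2 were Osm (0.16), Tmem63b (0.19) and Ptgs2 (0.20). Nearest to Egr1 were Rc3h2 (0.011), Prep (0.037) and Tmed9 (0.052), all with small differences between libraries. Rc3h2, which encodes the RNA-binding protein roquin-2, was at 68.7, 67.2 and 63.8 CPM in wtIDH1 and 90.2, 85.7 and 72.3 CPM in mIDH1. Among the 8 genes themselves, Nab1 and Nab2 were the nearest pair (0.29) and Nr4a2 and Egr3 the farthest (1.57), while Nr4a1 lay as near to Egr2 (0.37) as to Nr4a3 (0.37). All these distances share the same 6 libraries and the same group difference, so they describe likeness of pattern only.

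**Figure D4:**
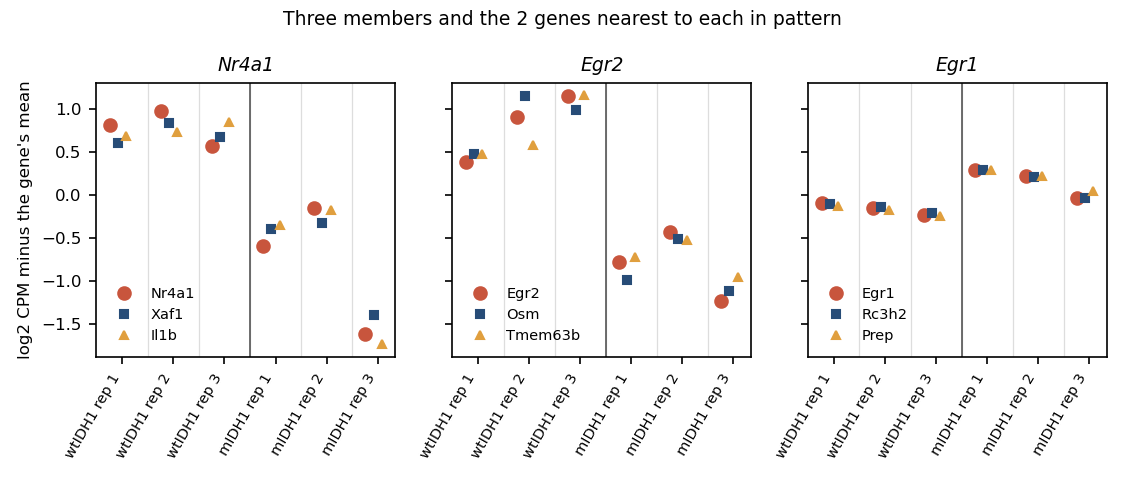
Log2 CPM minus each gene's mean, by library, for Nr4a1, Egr2 and Egr1 (large circles) and the 2 genes nearest to each in pattern (small symbols). Nr4a1, Xaf1 and Il1b are all lowest in mIDH1 replicate 3, while Egr1 and its nearest genes vary little.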

How the data were processed

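RNA from sorted CD11b+ Gr-1+ cells was sequenced as 3 wtIDH1 and 3 mIDH1 polyA libraries. The authors deposited a table of estimated counts per gene, unscaled. The submitters' processing notes name the mm10 build, the aligners Bowtie2 2.2.1 and TopHat2 2.0.13, HTSeq, Cufflinks and Cuffdiff 2.1.1, and FastQC. The sources used here do not say how multi-mapping reads were handled, or in what order the tools ran. From 1.31 to 1.61% of values per library were not whole (to 1e-09), and counts were rounded. Library totals were 19728205 to 35093265, where 3 counts are 0.0855 to 0.152 CPM. Replicates differed beyond sampling noise (48.5 to 139, chi-square per degree of freedom).

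Genes were filtered with filterByExpr (minimum count 10, total 15), scaled by TMM (factors 0.951 to 1.07) and tested with edgeR 4.0.16 in R 4.3.3 (glmQLFit, glmQLFTest, group only), two-sided, with Benjamini-Hochberg adjustment over 12950 genes at 0.05. The test was checked on simulated data. Alternatives were other scalings and filters, DESeq2 1.42.0, voom in limma 3.58.1, a replicate block and leaving out each library. All 8 genes are named, with up to 4 genes of smallest p per list and the 3 nearest in pattern to Nr4a1, Egr2 and Egr1 (prior count 2), except 2 genes that are not reported here. Fos, Ier2, Dusp1, S100a8, Ly6c2, Fn1, Sox2, Mbp, Nes, Gfap, Rgs5, Stat6, Il4ra and Egr4 were named after their values were seen. The same holds for Jun, Csf3r, Cxcr2, Mmp8, Lcn2, F13a1, Chd4, Ace and Treml4. The members and lists were chosen with earlier results of these data known. In the lists and markers, 7 symbols were matched under an older name.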

Additional observations from a re-analysis of the deposited data

How the results depend on the processing

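The 8 genes gave 4 calls under each alternative but the one without wtIDH1 replicate 2, so that the range with 1 library left out was 2 to 4. Over the 15 alternatives the values were -1.82 to -1.16 for Nr4a1, -1.18 to -0.85 for Nr4a3, -1.84 to -1.45 for Egr2 and 0.26 to 0.42 for Egr1. Nab2 and Egr3, whose groups overlap, changed sign: Nab2 was at 0.0065 with library totals alone and between -0.40 and 0.19 with 1 library left out, and Egr3 between -0.086 and 0.57. Over all genes 1058 passed, 1698 by DESeq2 and 334 to 1033 with 1 library left out. The split was 360 higher and 698 lower, against 486 and 593 with library totals alone and 456 and 603 with upper-quartile factors. With the replicate block 585 passed, 4 of the 8 among them. Numbers were not taken as pairs, since the labels state no pairing. Deviations of same-numbered libraries correlated at -0.03, 0.03 and -0.05, and those of other pairs at -0.04 to 0.07. With 1 library left out, 6 to 12 early response genes, 0 to 3 upstream genes, 0 to 3 heat shock genes, 0 to 2 Ly6C-low genes and 1 to 6 IL-4 genes passed. Partners gave 2 with totals alone, no filter or DESeq2, and upstream genes 4 with totals alone and 1 with the block. Ly6C-low genes gave 2 with no filter and 1 by DESeq2 or voom, and IL-4 genes 6 with no filter, 5 by DESeq2 and 4 by voom or the block. The cause of these changes was not tested. The number of libraries, 3 a group, limits the precision of all these values.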
